A study of Homo sapiens with 2 samples.

Results

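The genes described here are 9 human interferon-stimulated genes: IFI27, IFI6, ISG15, IFITM1, IFITM2, IFITM3, IRF1, MX1 and OAS1. They were chosen by symbol, through the Ensembl identifiers that GENCODE release 44 gives for them, and all 9 are among the 58735 genes listed in each count table. The RNA came from MCF10a-Snail-ER, a non-tumorigenic human mammary epithelial line that stably carries the transcription factor Snail fused to the estrogen receptor. Tamoxifen activates the fusion protein, and all of the RNA came from cells exposed to it at 100 nM for 1 day, a treatment meant to set off the change from epithelial to mesenchymal cells. Polyadenylated RNA was read on 2 platforms, as 1 Oxford Nanopore direct RNA library and 1 Illumina TruSeq stranded mRNA library. Both libraries share the line, the fusion and the tamoxifen, and the labels name no interferon treatment. No untreated or interferon-treated library was analysed here, so the values are levels in these cells, and no effect of tamoxifen, Snail or interferon on them can be read. There are no replicates, and every interval below covers counting error in 1 library only.

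Interferons are secreted proteins that bind receptors on the cell surface and, through Janus kinases and STAT proteins, switch on a set of antiviral genes. Type I and type III interferons act through a complex that includes STAT2 and IRF9 and binds the interferon-stimulated response element (ISRE). Type II interferon acts at another element, the gamma-activated site (GAS). Epithelial cells keep a low level of many of these genes without added interferon. The products of the 9 genes differ in place and action. IFITM1, IFITM2 and IFITM3 are small membrane proteins that hinder the entry of enveloped viruses. ISG15 is a ubiquitin-like modifier, OAS1 makes the oligoadenylates that activate RNase L, and MX1 is a dynamin-like GTPase that blocks viral replication. IFI6 and IFI27 are related small hydrophobic membrane proteins, and IRF1 is a transcription factor.

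The promoter sites are shown first, because the response element is what the genes of this family are known to share. RefSeq start-site windows on GRCh38.p14, from 250 bases before to 50 bases after each annotated start, were present for 8 members (11 windows, since IFI27 has 2 and MX1 has 3); IFITM2 had no entry. Each window was searched on both strands for an ISRE-like word with a gap of 2 bases (GAAANNGAAA), the same with a gap of 1 base (GAAANGAAA), and a GAS-like word (TTCNNNGAA). The words can overlap one another. One site of 30 bases is printed for each member, the one with the ISRE-like match nearest to the start in its first window, or the GAS-like match where there was none. It is written 5′ to 3′ on the gene's strand. Capitals mark the bases of the ISRE-like matches, or of the GAS-like match for IRF1. The IFITM1 and IFI27 sites also hold a GAS-like match, which is not marked.
ISG15: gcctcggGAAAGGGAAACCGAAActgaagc
IFI6: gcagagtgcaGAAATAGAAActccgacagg
IFITM1: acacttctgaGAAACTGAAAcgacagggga
IFITM3: gGAAAAGGAAActgttgaGAAACCGAAAct
IFI27: cagTTTCGGTTTCctgGAAAATGAAAccta
MX1: gcgagcaGAAATGAAACCGAAActgaattg
OAS1: cccttctgagGAAACGAAAccaacagcagt
IRF1: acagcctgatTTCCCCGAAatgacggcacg

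The ISG15 site (chr1:1013377-1013406, forward strand) holds overlapping matches from -113 to -98, counted from the start site with no position 0. The IFI6 site (chr1:27672266-27672295, reverse strand) begins at -93, and its window holds 3 matches with the gap of 2 bases. The IFITM3 site (chr11:320884-320913, reverse strand) holds a pair of matches between -52 and -26, and the IFITM1 site (chr11:314024-314053, forward strand) has its match from -6, across the start. The IFI27 site (chr14:94110625-94110654, forward strand) has a match on each strand between -108 and -86. The MX1 site (chr21:41420557-41420586, forward strand) lies just after the first of its annotated starts, from 7 to 21, and the OAS1 site (chr12:112906935-112906964, forward strand) has the gap of 1 base, from -17 to -9. IRF1 (chr5:132490878-132490907, reverse strand) had no ISRE-like match in its window and a GAS-like match from -124 to -116. Of the 8 members with a window, 7 held an ISRE-like word of either spacing, against 7.83% of the 27305 genes with a window. The word with the gap of 2 bases was in 6 of the 8, against 4.38% of all genes. A GAS-like word was in 5 of the 8, against 9.38% of all genes. In IFITM1, IFI27 and MX1 it shares bases with an ISRE-like match, in MX1 only in the last of its windows. In OAS1 and IRF1 it stands apart. A match describes the letters and shows neither binding nor use.

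Depth differed widely, with 403235 counts in all by Nanopore and 191741714 by Illumina. A single count therefore stood for 2.48 CPM (counts scaled to the library total) by Nanopore and for 0.00522 CPM by Illumina. A floor of 3 counts lay at 7.44 CPM for the first and at 0.0156 CPM for the second. Markers of basal mammary epithelium were present in both libraries for 8 of 8 genes, with Illumina levels from 10.4 to 1002 TPM (counts divided by the length of the canonical transcript and scaled to a common total). Leukocyte markers summed to 13.1 TPM over 7 genes, of which CD14 held 12.5, and PTPRC had 2 Illumina counts, while CD3E and CD74 were at 0. The 6 fibroblast markers summed to 8.35 TPM and the 4 endothelial markers to 1.57 TPM.

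The members fell into a high pair and a low remainder. IFITM2 and IFITM3 held 230 of the 237 Nanopore counts of the 9 genes, which is 97.05% (exact 95% binomial interval 94.0 to 98.8%). By Illumina they held 80233 of 84724 counts, or 94.7% (94.5 to 94.8%), and 96.9% of the members' summed TPM. All 9 genes had Illumina counts, from 72 for IFI27 to 55300 for IFITM3, and 5 had Nanopore counts. Of all Nanopore counts the 9 genes made up 0.0588% (0.0515 to 0.0668%). By Illumina their share was 0.0442% (0.0439 to 0.0445%). In bulk RNA, a gene used by few cells and one used weakly by all cells cannot be told apart.

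**Figure D1:**
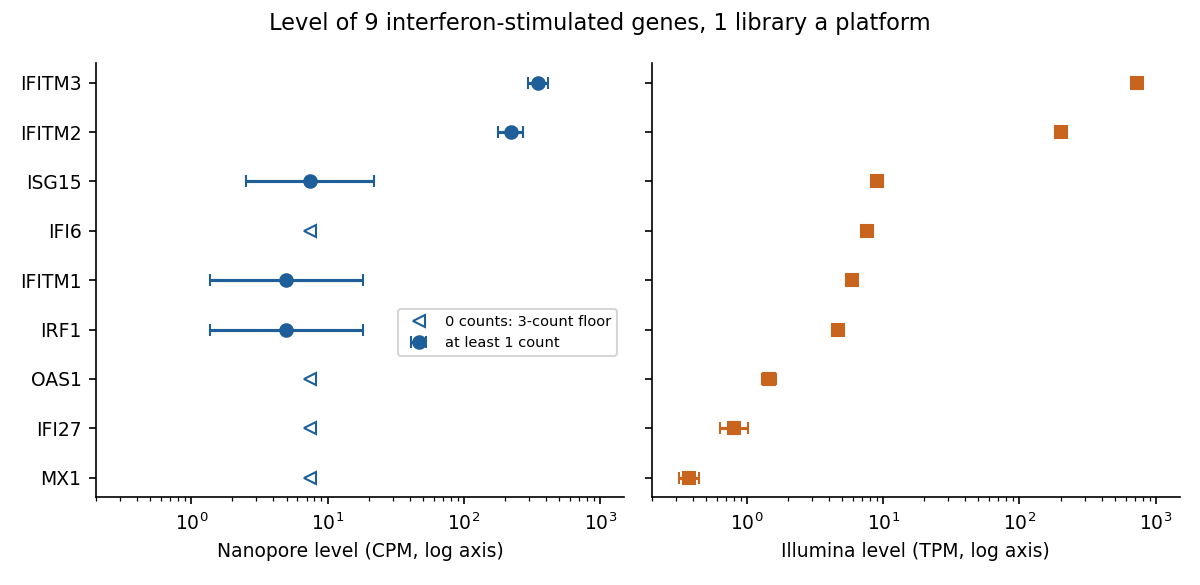
Level of each member by Nanopore (left, CPM with 95% Wilson interval) and by Illumina (right, TPM with 95% Wilson interval scaled to TPM), 1 library each, log axes. IFITM3 and IFITM2 stand above 200 on both scales and the other 7 members below 10, with open triangles at the 3-count floor of 7.44 CPM for the 4 members without a Nanopore count.

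IFITM3 (ENSG00000142089), best known for holding incoming viruses in endosomes, was the most abundant member. It lies on chromosome 11 from 319676 to 329475 (hg38, reverse strand), and its canonical transcript has 2 exons and 611 bases. The Nanopore library gave 141 counts, 349.7 CPM (95% Wilson interval 296.5 to 412.3), and the Illumina library 55300 counts, 288.4 CPM (286.0 to 290.8) or 731.5 TPM. That level was rank 315 of the protein-coding genes by Nanopore CPM and rank 181 by Illumina TPM, above 99.1% of them. The ratio of Nanopore to Illumina CPM was 1.21 (exact interval 1.02 to 1.43), narrowly above 1. Against Illumina TPM the ratio was 0.478 (0.402 to 0.564), so the direction between the libraries depended on whether length was taken into account.

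IFITM2 (ENSG00000185201), an endosomal relative of IFITM3, came second in both libraries. It lies on chromosome 11 from 303655 to 309397 (forward strand), with a canonical transcript of 2 exons and 1006 bases. It had 89 Nanopore counts, 220.7 CPM (179.4 to 271.6), and 24933 Illumina counts, 130.0 CPM (128.4 to 131.7) or 200.3 TPM. It ranked 518 among protein-coding genes by Nanopore CPM and 586 by Illumina TPM. The ratio of Nanopore to Illumina CPM was 1.70 (1.36 to 2.09), and against Illumina TPM it was 1.10 (0.884 to 1.36), an interval that holds 1.

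IFITM1 (ENSG00000185885), the family member found mainly at the plasma membrane, was far below its neighbours. It lies between them on chromosome 11, from 310041 to 315272 (forward strand), with a canonical transcript of 668 bases. It had 2 Nanopore counts, 4.96 CPM (1.36 to 18.1), and 487 Illumina counts, 2.54 CPM (2.32 to 2.78) or 5.89 TPM (5.39 to 6.44). The ratio of CPM was 1.95 with an interval from 0.236 to 7.09, so no difference between the libraries was detectable at this depth. The lncRNA gene ENSG00000254910 overlaps IFITM1 on the opposite strand, shares 176 exonic bases with it and had 0 Nanopore and 53 Illumina counts. For IFITM2 the overlapping gene was the pseudogene ENSG00000255533, with 0 and 4.

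The IFITM transcripts resemble one another, which bears on how reads were shared out among them. Over the aligned bases of the canonical transcripts, IFITM2 and IFITM3 were 94.0% identical, IFITM1 and IFITM3 79.9% and IFITM1 and IFITM2 77.8%. Exact words of 50 bases were shared less widely. Of those in the IFITM3 transcript, 9.07% also occur in IFITM2 and 17.4% in IFITM1. Of the words of IFITM1, 15.8% occur in IFITM3 and 8.08% in IFITM2, and of those of IFITM2, 5.33% occur in IFITM3. Over all genes of GENCODE release 44, 55.1% of the IFITM1 words occur in some other gene, against 20.8% for IFITM3 and 12.02% for IFITM2. Most of that sharing for IFITM1, 50.7% of its words, is with ENSG00000288681, for which no count was analysed here. How reads that map to several places were counted is not given in the sources used here, so the 3 IFITM levels are uncertain to that extent.

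A gene on the other strand had the same Nanopore count as IFITM3. ENSG00000251661, a long non-coding RNA (lncRNA) gene on the forward strand from 318640 to 325631, also had 141 Nanopore counts. By Illumina it had 49, against the 55300 of IFITM3, and its log2 ratio of Nanopore to Illumina CPM was 8.13. Its annotated exons share 0 bases with those of IFITM3. Among 302 pairs of a protein-coding gene with at least 50 Nanopore counts and an lncRNA gene whose body overlaps it on the opposite strand, 71 (23.5%) had Nanopore counts within 10% of each other. By Illumina 3 pairs (0.993%) did. Of the 101 such pairs that share no exonic base, 13 (12.9%) were that close by Nanopore and 2 (1.98%) by Illumina. The tables hold counts and no reads, so whether the same reads entered both genes was not tested. The other lncRNA genes opposite IFITM3, ENSG00000255089 and ENSG00000255328, had 0 counts in both libraries.

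**Figure D2:**
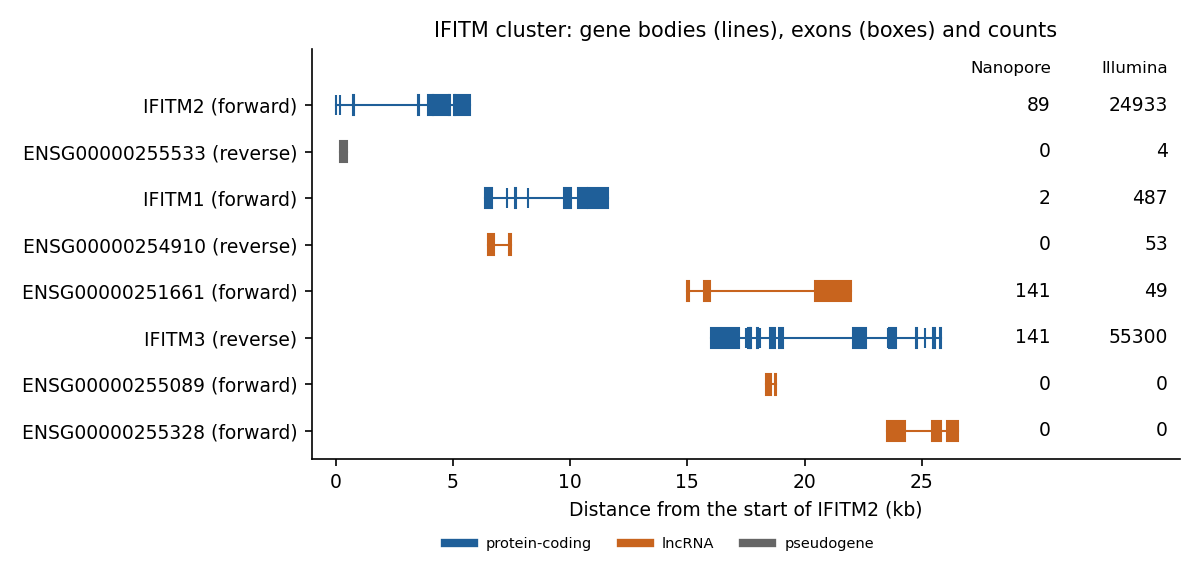
Map of the IFITM cluster drawn as distance from the start of IFITM2 (kb), with gene bodies as lines, exons as boxes, strand in the labels and each gene's Nanopore and Illumina counts at the right. IFITM3 and the lncRNA gene ENSG00000251661 on the opposite strand each have 141 Nanopore counts, against 55300 and 49 Illumina counts. IFITM1, between IFITM2 and IFITM3, has 2 and 487.

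ISG15 (ENSG00000187608), the modifier that is attached to other proteins after interferon, was among the low members in both libraries. It lies on chromosome 1 from 1001138 to 1014540 (forward strand), with a canonical transcript of 637 bases. It had 3 Nanopore counts, 7.44 CPM (2.53 to 21.9), and 712 Illumina counts, 3.71 CPM or 9.03 TPM (8.39 to 9.72). The ratio of CPM was 2.00 (0.412 to 5.88), which does not separate the libraries. The lncRNA gene ENSG00000224969, which overlaps it on the opposite strand, had 0 Nanopore and 3 Illumina counts, and the pseudogene ENSG00000231702 had 0 in both.

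IRF1 (ENSG00000125347), a transcription factor that is itself induced by type II interferon and was the one member with no ISRE-like word in its window, was at a similar level. It lies on chromosome 5 from 132440440 to 132508719 (reverse strand), and its canonical transcript, at 3554 bases, is the longest of the 9. It had 2 Nanopore counts, 4.96 CPM (1.36 to 18.1), and 2032 Illumina counts, 10.6 CPM (10.1 to 11.1) or 4.62 TPM (4.42 to 4.83). Its ratio was 0.468 in CPM (0.0566 to 1.69) and 1.07 against Illumina TPM (0.130 to 3.88). The antisense gene IRF1-AS1, which shares 2805 exonic bases with it, also had 2 Nanopore counts and had 476 by Illumina. A protein-coding gene on the other strand, ENSG00000283782, shares 486 exonic bases and had 20 and 16849 counts. The overlapping Y_RNA gene ENSG00000202533 had 0 in both.

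The other 4 members had no Nanopore count, which at this depth allows a level of up to 7.44 CPM, the floor of 3 counts. IFI6 (ENSG00000126709, chromosome 1, 27666064 to 27672212, reverse strand), which acts at the endoplasmic reticulum, had 766 Illumina counts, 3.99 CPM or 7.62 TPM (7.10 to 8.18). OAS1 (ENSG00000089127, chromosome 12, 112905856 to 112933219, forward strand) had 293 Illumina counts, 1.53 CPM or 1.45 TPM (1.30 to 1.63). IFI27 (ENSG00000165949, chromosome 14, 94104836 to 94116695, forward strand) had 72 Illumina counts, 0.376 CPM or 0.803 TPM (0.637 to 1.01). MX1 (ENSG00000157601, chromosome 21, 41420020 to 41470071, forward strand) had 129 Illumina counts, 0.673 CPM or 0.376 TPM (0.316 to 0.446), the lowest level per length of the 9. In CPM all 4 Illumina levels lie below that floor, so no difference between the libraries was detectable for them. In TPM the level of IFI6 lies just above the floor, and the exact interval of its ratio of Nanopore CPM to Illumina TPM reaches up to 1.20, so none was detectable there either.

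At their Illumina CPM, the Nanopore depth would give 1.61 counts of IFI6, 0.616 of OAS1, 0.271 of MX1 and 0.151 of IFI27. With the Illumina counts thinned at random to the Nanopore total in 20 draws, between 3 and 8 of the 9 members had a count, with a mean of 5.60. The Nanopore library itself had 5. Over the 2202 protein-coding genes within the Illumina CPM range of these 4 members, 50.1% had at least 1 Nanopore count. These 4 were picked for having none, so they cannot be compared with that share. ISG15 and IFITM1, at 3.71 and 2.54 CPM by Illumina, also lie in that range and had 3 and 2 Nanopore counts. IFI27 is the one member whose canonical transcript also lies on an alternate contig of hg38, at full length with 0% divergence, and whether that lowered its counts was not tested. Among the genes listed in the count tables, none overlaps IFI27. Of the listed genes that overlap the other 3, ENSG00000225886 opposite IFI6 had 27 Illumina counts and none by Nanopore. LINC02574 overlaps IFI6 on the same strand and shares 216 exonic bases with it. Of the 50-base words of IFI6, 21.9% occur in LINC02574, and the part of this in the IFI6 counts was not tested. LINC02574 itself had 0 counts in both libraries, as did TMPRSS2 and ENSG00000228318 at MX1 and ENSG00000257452 at OAS1.

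The order of the members was read on the Nanopore CPM scale, where each strand is read once whatever its length, and on the Illumina TPM scale. By Nanopore IFITM3 exceeded IFITM2 by 1.58-fold (exact interval 1.21 to 2.09) and IFITM2 exceeded ISG15 by 29.7-fold (9.83 to 146.6). ISG15, IFITM1 and IRF1 could not be told apart from their neighbours in that order, nor could IRF1 from the members at 0. By Illumina the order in TPM was IFITM3, IFITM2, ISG15, IFI6, IFITM1, IRF1, OAS1, IFI27 and MX1, and by the canonical length neighbours were apart by more than counting error. The closest pair was ISG15 and IFI6, with a ratio of 1.18 (1.07 to 1.31). With all annotated exons counted as the length the sequence of names was the same, but ISG15 and IFI6 (1.00, 0.905 to 1.11) and OAS1 and IFI27 (1.30, 0.998 to 1.70) could not be told apart. In CPM, which takes no account of length, IRF1 stood next after IFITM2, ISG15 and IFI6 could not be told apart, and MX1 lay above IFI27. The level of IFITM3 over IFITM2 by Illumina was 3.65-fold in TPM (3.60 to 3.71), 2.22-fold in CPM and 1.25-fold when all annotated exons were counted as the length, so its size depends on the length used. Both libraries thus placed the same pair at the top, and the low members can be ordered only by Illumina, in part according to the length used.

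Ratios between the platforms were read where a gene's CPM averaged 5 or more over both libraries, and a gene was called past 4-fold on the scale of log2(CPM + 1). Only 4 of the 9 members reach that mean: IFITM2, IFITM3, ISG15 and IRF1. None of them was past 4-fold. Over all 12414 genes tested, 12.9% were past 4-fold with Nanopore higher and 8.14% with Illumina higher, so 0 of 4 does not set the members apart. With Illumina in TPM the members' count was again 0 of 4 in each direction, against 15.6% and 3.7% of 12350 genes with an annotated length. The log2 ratios of the 4 in CPM were 0.76 for IFITM2, 0.28 for IFITM3, 0.84 for ISG15 and -0.96 for IRF1. With Illumina in TPM they were 0.14, -1.06, -0.25 and 0.08, so that IFITM3, ISG15 and IRF1 changed sign. ISG15 reached the mean of 5 CPM only through its Nanopore level, on 3 counts, and IRF1 only through its Illumina level, so no summary over the 4 is given. Over all tested genes the median log2 ratio was -0.42 in CPM and 0.48 with Illumina in TPM. The change of scale alone raised the ratio of the median tested gene by 0.81, while it lowered that of the 3 members with short transcripts.

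**Figure D3:**
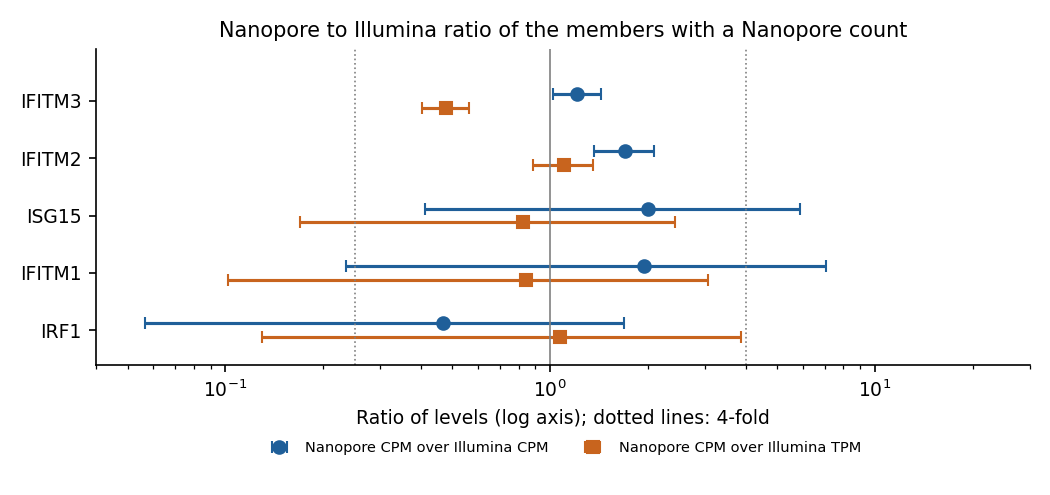
Ratio of Nanopore CPM to Illumina CPM (circles) and to Illumina TPM (squares) for the 5 members with a Nanopore count, with exact 95% counting intervals on a log axis, a solid line at 1 and dotted lines at 4-fold. Only IFITM2 and IFITM3 have intervals that leave out 1, and IFITM3 is at 1.21 on one scale and at 0.478 on the other.

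The genes around the members were taken from a list of 87 interferon pathway genes in 7 roles. Of these, 52 had a Nanopore count and 75 an Illumina count, and 50 averaged 5 CPM or more. No gene of the list was past 4-fold with Nanopore higher in CPM, and 8 of 50 were with Illumina higher, against the 12.9% and 8.14% of all tested genes given above. Those shares cover genes of every type, also lncRNA genes such as ENSG00000251661, so the list was not compared with genes of its own kind. All of the 8 except MAVS reached the mean of 5 CPM only through their Illumina level. That favours the direction, so the count is a description. The median log2 ratio of the 50 in CPM was -0.91, or -0.89 with genes at 0 set to the 3-count floor. With Illumina in TPM, 1 gene was past 4-fold with Nanopore higher and 4 with Illumina higher, against 15.6% and 3.7% of the 12350 genes with an annotated length. Of those 4, OAS3 lies below the Nanopore floor, so no fold can be given for it. The median of the list on that scale was -0.07. Over all tested genes the median was -0.42 in CPM and 0.48 with Illumina in TPM.

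Interferon genes themselves were at or near 0. IFNE, an epithelial type I interferon, had 1 Nanopore and 63 Illumina counts, 0.345 TPM. IFNK, the keratinocyte interferon, had 0 and 13 counts, and IFNA1 had 0 and 2, under the 3-count floor. IFNA2, IFNB1, IFNW1, IFNG, IFNL1, IFNL2 and IFNL3 had no count in either library. IFNB1, IFNW1, IFNA1, IFNA2 and IFNE lie on chromosome 9 between 21077104 and 21482313, on the same arm as the cell-cycle inhibitor genes CDKN2A and CDKN2B, which had 0 counts in both libraries. MTAP, which lies between IFNE and CDKN2A, had 0 and 14 counts, and DMRTA1 beyond CDKN2B had 0 and 105. Whether these loci are present in the line was not tested.

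The receptors were all detected by both libraries. IFNGR2, a chain of the type II receptor, was highest at 96.4 TPM by Illumina with 32 Nanopore counts, and its partner IFNGR1 came next with 26 Nanopore and 7698 Illumina counts. IL10RB, a chain that the type III receptor shares with others, was at 11.9 TPM. The type I chains IFNAR1 and IFNAR2 were at 9.97 and 7.19 TPM. None of the 5 receptor genes tested was past 4-fold, and the sixth, IFNLR1, the specific chain of the type III receptor, was low, at 0.556 TPM with 1 Nanopore count. Among the signalling genes, STAT3 and the kinase JAK1 were at 35.2 and 28.9 TPM by Illumina, with 13 and 22 Nanopore counts. STAT2, of the type I complex, had 2 Nanopore counts (4.96 CPM) against 32.9 CPM by Illumina. Its log2 ratio was -2.51 in CPM and -1.08 with Illumina in TPM, so STAT2 was past 4-fold on the first scale and within it on the second. On 2 Nanopore counts the exact interval of its CPM ratio ran from 0.0183 to 0.545. STAT2 reached the mean of 5 CPM only through its Illumina level.

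Of the sensors, which detect foreign or misplaced nucleic acid and pass the signal on, IRF3, STING1 and TBK1 had the highest Illumina levels, 73.1, 47.6 and 18.7 TPM. MAVS, the adaptor of the RNA sensors, was past 4-fold in CPM with Illumina higher, at 14.9 CPM by Nanopore and 115.9 CPM by Illumina, a log2 ratio of -2.88. On 6 Nanopore counts the exact interval of its CPM ratio ran from 0.0471 to 0.279. With Illumina in TPM the log2 ratio of MAVS was -0.04. Among the genes that restrain the response, ADAR, an RNA-editing enzyme, was at 67.6 TPM with 39 Nanopore counts, IRF2 at 17.5 TPM and PIAS1 at 8.21 TPM. None of the 3 tested genes of that role was past 4-fold.

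The other interferon-induced effectors spread as widely as the members. Of 42, 39 had an Illumina count and 24 a Nanopore count. BST2, which tethers budding viruses to the membrane, was highest at 139.0 TPM by Illumina with 27 Nanopore counts, followed by the DNA sensor IFI16 at 83.4 TPM with 33. The immunoproteasome subunit PSMB8 came after them at 44.4 TPM, with 6168 Illumina counts and 0 by Nanopore. With that 0 set to the floor of 3 counts, PSMB8 was 4.32-fold lower by Nanopore in CPM. The exact interval of its CPM ratio reaches up to 0.284, which allows a smaller difference than the floor gives. At the other end EPSTI1, CXCL9 and CXCL11 had no count in either library, and RSAD2 and CXCL10 had 5 and 3 Illumina counts. Members and effectors alike therefore held genes at 100 TPM or more beside genes near 0. Of the 34 effectors with a RefSeq window, 30 held an ISRE-like word of either spacing, against the 7.83% of all genes given above, and 10 held a GAS-like word, against 9.38%.

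**Figure D4:**
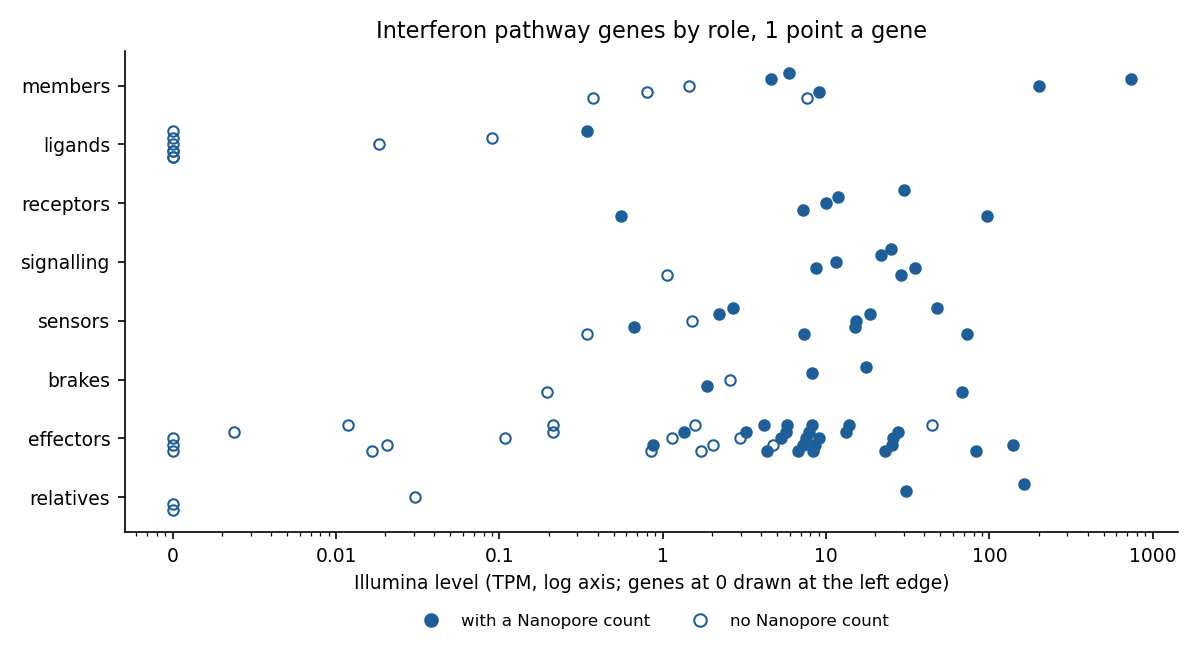
Illumina level (TPM, log axis, genes at 0 at the left edge) of the 9 members and of the 87 pathway genes by role, 1 point a gene, filled where the gene had a Nanopore count. Of the 10 ligands 7 are at 0 and none reaches 1 TPM, while IFITM3 and IFITM2 lie to the right of every other gene shown.

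Of the 26 effectors tested, 6 were past 4-fold in CPM, each of them with Illumina higher, beside 8.14% of all tested genes in that direction. All 6 reached the mean of 5 CPM only through their Illumina level, which favours that direction, so the count is a description. TAP1, the peptide transporter of antigen presentation, was at 4.96 CPM by Nanopore and 22.9 CPM by Illumina, a log2 ratio of -2.004, at the edge of the rule. DTX3L and PARP14, of the ADP-ribosylation machinery, had log2 ratios of -2.23 and -2.53. All 3 rest on 2 Nanopore counts, and the exact intervals of their CPM ratios reach up to 0.783 for TAP1, 0.665 for DTX3L and 0.537 for PARP14. PSMB8, OAS3 and IFI44L had no Nanopore count. With the 0 set to the floor of 3 counts, OAS3 was 2.72-fold and IFI44L 1.499-fold lower by Nanopore in CPM. The exact intervals of their CPM ratios reach up to 0.452 and 0.821, which allow smaller differences than the floor gives. With Illumina in TPM, PSMB8 stayed past 4-fold. OAS3 is also counted there, but its 4.76 TPM lies below the Nanopore floor of 7.44 CPM, so no fold can be given for it. DDX60, with 4 Nanopore counts, was past 4-fold with Nanopore higher at a log2 ratio of 2.22. The exact interval of its CPM ratio, 0.517 to 4.88, holds 1. PSMB8 and TAP1 also lie in full on alternate contigs of chromosome 6 in hg38.

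The closest relatives of the members outside the list of 9 gave the last contrast. IFI27L2 and IFI27L1, neighbours of IFI27 on chromosome 14, were at 163.5 and 30.7 TPM by Illumina, against 0.803 TPM for IFI27. They had 10 and 1 Nanopore counts, and with Illumina in TPM both were past 4-fold with Illumina higher, at log2 ratios of -2.67 and -3.19. In CPM neither was past it (-0.91 and -1.99). The exact intervals of the CPM ratio were 0.25 to 0.959 for IFI27L2 and 0.0049 to 1.08 for IFI27L1. Both have a full-length copy on an alternate contig of chromosome 14, as IFI27 does, and the part of those copies in the ratios was not tested. IFI27L1 reached the mean of 5 CPM only through its Illumina level. IFITM10 had 14 Illumina counts, and IFITM5 and IFITM4P had none in either library.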

How the data were processed

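Per the labels' protocols, the Nanopore library was made from RNA molecules directly and run on a MinION, and the Illumina library was a strand-marking TruSeq preparation. The authors deposited whole-number counts per Ensembl gene, without normalization. The submitters' processing notes name minimap2 2.11-r797, HISAT2 2.1.0, featureCounts and hg38. The Nanopore column's name carries a suffix that no label explains. Counting options, use of strand, treatment of multiply mapped or overlapping reads and any correction of the Nanopore reads are not given in the sources used here. Whether reads of a gene and of a partner on the other strand were counted apart was therefore not tested. Of the 302 opposite-strand pairs described above, 23.5% had counts within 10% of each other by Nanopore and 0.993% by Illumina. The libraries may not be independent if long reads were corrected with short ones. Of 58735 identifiers, 58207 matched GENCODE release 44, and the 528 others held 0.396% of Nanopore and 0.172% of Illumina counts.

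Counts were scaled to CPM by library total, with Wilson 95% intervals. Log2 ratios set Nanopore over Illumina, with 1 CPM added to each level. Ratios without the added 1 carry exact conditional binomial (Clopper-Pearson) 95% intervals. Both cover counting error only, since amplified reads are not independent molecules. With 1 library a platform no model across replicates could be fitted and no p-value is given. TPM used the Ensembl canonical transcript length. Alternative scalings included TMM (edgeR 4.0.16 in R 4.3.3). Copies on alternate contigs were sought with minimap2 2.31 in spliced mode (at least 80% of the transcript, at most 5% divergence). Promoter windows came from RefSeq on GRCh38.p14, and all 11 were identical to hg38 at their coordinates. The interval and the 4-fold rule were tested on simulated Poisson counts. Changes were placed only in genes whose Illumina level was above that of the low members, so the rule was not tried for changes at their level.

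The members and lists were chosen with earlier results of these data known. By rule, the named genes were all members, all ligands and their chromosome 9 neighbours MTAP, CDKN2A, CDKN2B and DMRTA1, the 3 genes of each role highest in Illumina TPM, genes past 4-fold with a Nanopore count, and genes that overlap a member. Overlaps were sought only among the genes listed in the count tables. A gene that the rule names is not reported here. IFNAR1, IFNAR2, IFNLR1, OAS3, IFI44L, EPSTI1, CXCL9, CXCL10, CXCL11, RSAD2, IFITM5 and IFITM4P fall outside that rule and were named after their values were seen.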

Additional observations from a re-analysis of the deposited data

How the results depend on the processing

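The counts of members past 4-fold stayed at 0 in each direction under pseudocounts of 0.1 and 5 CPM, TMM, median-ratio scaling, totals without mitochondrial genes and both length scalings. Without a filter on mean CPM, 1 member, IFI6 at 0 Nanopore counts, was past it with Illumina higher. Of 63 alternative values of the 9 member log2 ratios, 6 changed sign, all with Illumina in TPM. IFITM3, whose interval in CPM left out 1, went from 0.28 to -1.06 by canonical length (0.35 by union exonic length). The others had intervals that hold 1: ISG15 went from 0.84 to -0.25 and -0.58, IRF1 from -0.96 to 0.08 and 0.84 by those lengths, and IFITM1 from 0.75 to -0.21 by the first. IFITM2 went from 0.76 to 0.14 and 0.01. For the 4 members at 0 Nanopore counts the value depends on the pseudocount and has no reading as a fold. Detection by Nanopore fell from 5 members to 3 at a minimum of 3 counts and 2 at 10, and by Illumina from 9 to a mean of 5.60 after thinning. The Illumina ratio of IFITM3 to IFITM2 went from 3.65 to 2.22 in CPM and 1.25 by union length, and ISG15 and IFI6 were told apart only by canonical length. In the pathway list, the genes past 4-fold with Illumina higher went from 8 to 3 with a pseudocount of 5 CPM, 4 by canonical and 3 by union length, and with Nanopore higher from 0 to 1 and 3 by those lengths. Over all genes, the 1597 with Nanopore higher became 749 at a mean of 20 CPM and 86 among genes that overlap no other. At a mean of 1 CPM or with no filter they became 2208. The 1010 with Illumina higher became 480 and 284, and 1599 at a mean of 1 CPM or with no filter. Each of these filters tests another set of genes, so the counts are not shares and cannot be compared as such. The alternatives for the pathway list, the order, the length-scaled counts and the unfiltered members were chosen after the data were seen. TMM and the median ratio raised Nanopore over Illumina by 0.09 and 0.13 (log2). No paired analysis was possible because each platform has 1 library. Depth limits the Nanopore values of 7 of the 9 members, which rest on 3 counts or fewer.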
